A study of Mus musculus with 28 samples.

Results

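The solute carrier (SLC) genes of the array were read across mouse bone marrow stem and progenitor cells, leukaemic progenitors and progenitors expressing the fusion protein MLL-AF9. A gene was a member when a probe set was annotated with that gene alone and its symbol began with Slc and a number, and 262 genes with 419 such probe sets met this. Members were kept in an experiment when a probe set exceeded the median of all values there on at least 3 arrays, and each gene was read from its kept probe set with the highest mean. This left 152 members of 8422 genes tested in the sorted experiment and 124 of 7235 in the transduced experiment, with 119 in both, 157 in either and 105 in neither. Among the kept members are 3 that carry the name but are adaptor proteins (Slc4a1ap, Slc9a3r1 and Slc9a3r2).

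Solute carriers are membrane proteins that move amino acids, sugars, nucleosides, vitamins, metals and inorganic ions across the plasma membrane and the membranes of organelles, down a gradient or coupled to another ion. Dividing marrow cells depend on them for nutrients, erythroid precursors use several to bring iron and glycine to the mitochondrion for haem, and phagocytes use others to withdraw metals from the phagosome. Some work as a pair of subunits, such as the transporter Slc7a5 with its glycoprotein partner Slc3a2.

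The sorted experiment compared 4 normal marrow populations with leukaemic cells. All were gated as lineage-negative and Kit-positive. Those enriched for haematopoietic stem cells (HSC, 5 arrays) were Sca-positive, and the others were Sca-negative: common myeloid progenitors (CMP, 4 arrays, labelled FCR+ and CD34low), granulocyte-macrophage progenitors (GMP, 4 arrays, FCR+ and CD34high) and megakaryocyte-erythroid progenitors (MEP, 3 arrays, FCR- and CD34-). The leukaemic cells carried the markers of GMP (L-GMP, 6 arrays, FCR+ and CD34+). In the transduced experiment, GMP expressed either the green fluorescent protein (GFP, 3 arrays) or MLL-AF9 (3 arrays). Strain, age, vector and the number of animals behind each array are not given in the sources used here, so p-values measure the spread between arrays, which may be technical. RNA of the experiments was amplified on different days, and levels were not compared between them.

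Values are array intensities scaled to a common level within each experiment, with a floor of 38.7 in the sorted and 78.0 in the transduced experiment below which values have no order. Arrays of a group correlated with r from 0.937 to 0.984 (sorted) and from 0.944 to 0.990 (transduced) across genes, which are not independent replicates. Erythroid and stem cell markers separated their sorts: the summed level of 8 erythroid markers was 11666 to 17511 in MEP and at most 4840 in the other sorts, and that of 5 stem cell markers was 5057 to 5485 in HSC and at most 2654 elsewhere. Other lists overlapped: 11 granulocyte markers summed to 11689 to 33041 in HSC and 32078 to 50282 in GMP, and 6 megakaryocyte markers to 3720 to 4108 in MEP and 3583 to 8959 in CMP. Immediate early genes, which respond to cell handling, differed between arrays: the summed level of 21 such genes was 3641 to 9098 in L-GMP, 6531 to 29794 in GMP, 6117 to 39585 in CMP, 15112 to 66187 in HSC and 33408 to 36903 in MEP. The first arrays of HSC, CMP and GMP were the lowest of their groups. The log2 ratio of 3′ to 5′ control signal, a measure of RNA length, was 2.85 ± 0.08 in L-GMP (SD, n = 6) and 2.92 ± 0.31 in GMP (SD, n = 4).

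Leukaemic L-GMP differed from normal GMP in carriers of nearly every substrate class. By the moderated test of limma at a Benjamini-Hochberg adjusted p under 0.05 over all genes, called genes included 23 members that were higher and 31 that were lower in L-GMP. These are 15.1% and 20.4% of the 152 members, against 15.2% and 18.3% of all genes tested, so the members as a whole moved about as often as other genes. The median log2 difference of the members was 0.06, and that of all genes was 0.01. Of the 152, 112 exceeded the experiment's median on at least 3 arrays in both L-GMP and GMP, and the other 40 passed through other arrays or through 1 of the 2 groups. Of 20 immediate early genes tested, 4 were lower in L-GMP than in GMP, and without the first arrays of HSC, CMP and GMP 54 members were called as well, not all of them the same.

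**Figure D1:**
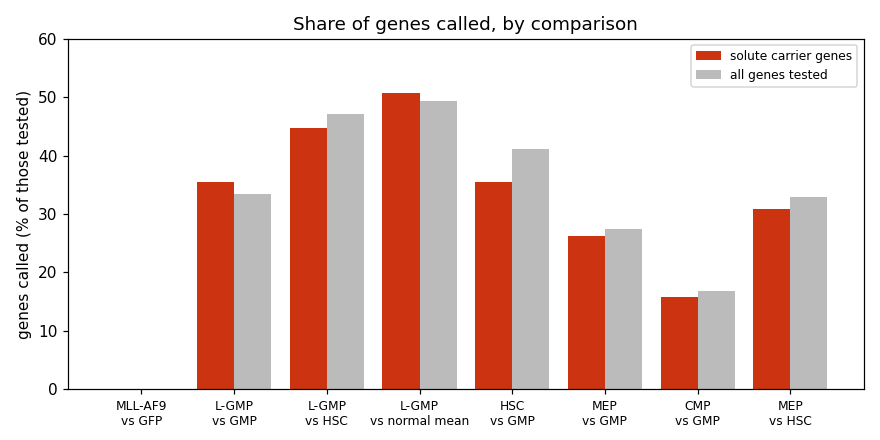
Share of solute carrier genes (red) and of all genes tested (grey) called at an adjusted p under 0.05, in percent of those tested, for each comparison. Both bars are close in height in each comparison, for example 35.5% against 33.5% for L-GMP against GMP, and both are near 0 for MLL-AF9 against GFP.

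Within the classes, 5 of 22 metal carriers were higher in L-GMP than in GMP and 6 were lower. Among all genes, 15.2% were higher and 18.3% lower. Among 26 mitochondrial carriers 4 were higher and 7 lower, among 23 amino acid carriers 2 were higher and 3 lower, and among 20 carriers of inorganic ions 4 were higher and 4 lower. No carrier of fatty acids and lipids was called (4 tested). A difference of at least 2-fold was called for 9 members (5.92%, against 6% of all genes).

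**Figure D2:**
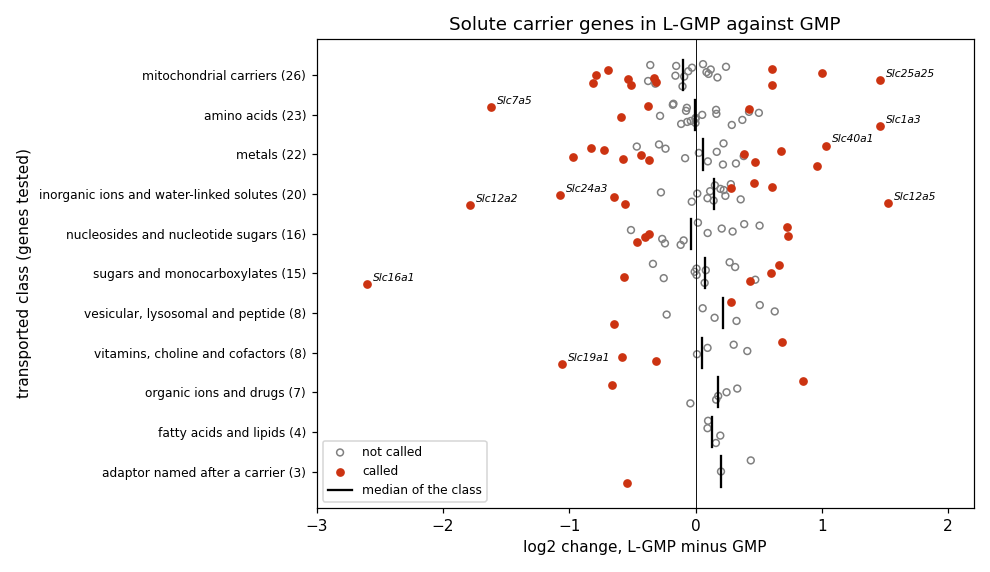
Each point is a solute carrier gene, placed by its log2 change in L-GMP minus GMP and by the class of its substrate, with filled points for called genes and a bar at the median of each class. The class medians lie near 0, while single genes such as Slc16a1 (-2.60) and Slc12a5 (1.52) lie far from them.

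The carrier with the largest fall was Slc16a1, the monocarboxylate transporter that moves lactate and pyruvate together with protons. Its scaled intensity on the GMP arrays was 567, 507, 429 and 612, and on the L-GMP arrays it ran from 70.1 to 134 with a median of 80.9. Every L-GMP array lay below every GMP array. The difference was -2.60 on the log2 scale (SE 0.21, 6.08-fold lower, limma adjusted p = 5.43e-09). Slc16a1 also separated the normal sorts: MEP arrays read 524, 452 and 829.4, CMP arrays 285, 247, 254 and 466, and HSC arrays 190.2, 131, 120.1, 187 and 158. L-GMP lay nearest to HSC among the sorts, and its highest array overlapped them, but it was called lower than HSC by 1.79-fold (log2 difference -0.84, SE 0.20, adjusted p = 0.00135).

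The subunits of the large neutral amino acid exchanger were both lower in L-GMP. Slc7a5, the transporting subunit that takes up leucine and other essential amino acids, read 125, 194, 176 and 209 in GMP and from the floor of 38.7 to 96.2 in L-GMP, with a median of 52.1. Its groups did not overlap, and the difference was -1.62 (SE 0.26, adjusted p = 4.7e-05). Slc3a2, the heavy chain that brings Slc7a5 to the cell surface, read 525, 587, 733 and 674 in GMP and 353 to 516 in L-GMP, with a median of 397. That pair of groups did not overlap either, with a difference of -0.59 (SE 0.15, adjusted p = 0.0037). No difference of Slc3a2 among the normal sorts was called (limma adjusted p from 0.438 to 0.947 in the 4 comparisons), and each of its 16 normal arrays lay above the 6 of L-GMP. Slc7a5 was also low in HSC, at 77.2, 68.1, 73.8, 93.8 and 53.3, and its difference between L-GMP and HSC was not called (-0.36, SE 0.24, adjusted p = 0.238). The other amino acid carriers set out for description did not differ by the test: glutamine carriers Slc1a5 (-0.12, adjusted p = 0.593) and Slc38a2 (-0.04, adjusted p = 0.844), and the basic amino acid exchanger Slc7a7 (-0.18, adjusted p = 0.597).

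Genes of the amino acid response and enzymes that use amino acids were tested alongside. Of 13 tested genes of the amino acid response and of serine and folate metabolism, 1 was higher and 5 were lower in L-GMP than in GMP, against 15.2% and 18.3% of all genes. Phgdh, which starts serine synthesis, was the lowest of them (log2 difference -3.56, SE 0.21, adjusted p = 4.85e-11). Slc19a1, the reduced folate carrier, read 538, 613, 619.6 and 584 in GMP and 258 to 347 in L-GMP (median 269.7), with no overlap and a difference of -1.06 (SE 0.12, adjusted p = 5.33e-07). The second kept probe set of Slc19a1 gave -0.31 and was not called (adjusted p = 0.112).

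Among carriers of inorganic ions, a cotransporter present in every normal sort was at the floor in L-GMP. Slc12a2, the sodium-potassium-chloride cotransporter that loads cells with chloride and sets their volume, was at the floor of 38.7 on all 6 L-GMP arrays. It read 116, 139, 154 and 128 in GMP, 643, 504 and 493 in MEP, 431, 334, 263, 363 and 395 in HSC, and 258, 221, 253 and 360.4 in CMP. It was thus above the floor on all 16 normal arrays and on no L-GMP array. L-GMP was at least 3.45-fold lower than GMP (adjusted p = 1.62e-09) and at least 9.11-fold lower than HSC (adjusted p = 8.29e-15). The second kept probe set of Slc12a2 was at the floor on 5 of 6 L-GMP arrays and was also called lower (adjusted p = 0.0497). With the floor at the 50th percentile, close to the GMP values, the call was lost (-0.31, adjusted p = 0.079). Slc24a3, a potassium-dependent sodium-calcium exchanger, read 73.7, 118, 111 and 70.2 in GMP and 38.7 to 66.8 in L-GMP (median 39.5). Its groups did not overlap, and the difference was -1.07 (SE 0.17, adjusted p = 3.29e-05), a call also lost at the higher floor (adjusted p = 0.511). Slc24a3 passed the filter through GMP arrays 2 and 3 and MEP array 1 alone, so a lower level in L-GMP was favoured by that choice. It was not tested with any of these arrays left out, nor with quantile normalization, the deposited scale or a stricter filter.

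Slc12a5 was opposite to Slc12a2. This potassium-chloride cotransporter, known best from neurons, exports chloride. It read 47.3, 55.2, 50.1 and 67.9 in GMP and 133 to 188 in L-GMP (median 155), and no other sort exceeded 76.3. All L-GMP arrays were above all normal arrays, and the difference to GMP was 1.52 (SE 0.12, adjusted p = 3.34e-09). The gene passed the filter through L-GMP arrays alone, so an excess in L-GMP was built in by that choice. A second Slc12a5 probe set was at the floor on all 22 arrays and did not pass the filter, so the call rests on 1 probe set.

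To let the upstream sequence be read beside the values, the 250 bases before the annotated start are shown for 4 members: Slc16a1 and Slc3a2, lower in L-GMP, Slc11a1, higher in L-GMP, and Slc38a5, which marked MEP. They are from RefSeq (GRCm38.p6), 5′ to 3′ on the strand of the gene, at chr3:104638414-104638663 (plus), chr19:8713898-8714147 (minus), chr1:74374953-74375202 (plus) and chrX:8271131-8271380 (plus). Capitals mark the letters CACGTG, the palindromic E-box bound by Myc-Max and related factors.
Slc16a1: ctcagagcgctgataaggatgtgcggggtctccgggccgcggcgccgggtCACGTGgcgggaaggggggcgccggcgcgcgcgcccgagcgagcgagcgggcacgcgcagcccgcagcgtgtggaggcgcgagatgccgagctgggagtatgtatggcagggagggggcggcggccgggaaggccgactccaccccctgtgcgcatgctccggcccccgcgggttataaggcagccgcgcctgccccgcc
Slc3a2: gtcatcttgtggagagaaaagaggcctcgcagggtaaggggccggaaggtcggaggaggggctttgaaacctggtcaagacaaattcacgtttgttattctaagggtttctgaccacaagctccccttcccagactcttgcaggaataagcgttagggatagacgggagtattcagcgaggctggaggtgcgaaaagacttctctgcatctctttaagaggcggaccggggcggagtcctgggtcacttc
Slc11a1: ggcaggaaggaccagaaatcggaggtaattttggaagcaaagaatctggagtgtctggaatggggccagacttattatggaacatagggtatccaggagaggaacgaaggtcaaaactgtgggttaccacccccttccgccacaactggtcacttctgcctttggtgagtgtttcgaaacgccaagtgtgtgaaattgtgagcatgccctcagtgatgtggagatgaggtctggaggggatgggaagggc
Slc38a5: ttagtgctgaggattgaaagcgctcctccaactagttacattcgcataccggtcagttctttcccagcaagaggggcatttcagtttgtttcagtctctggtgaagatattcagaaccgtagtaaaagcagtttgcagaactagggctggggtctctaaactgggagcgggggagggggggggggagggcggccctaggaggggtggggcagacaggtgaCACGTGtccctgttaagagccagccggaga

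Such a window was given for 117 of the 152 members kept in the sorted experiment, and 4 motifs were searched on both strands: CACGTG, the GATA motif AGATAA, the ATF4 motif TGATGNAAN and the PU.1 motif GAGGAAGT, none of which contains another. CACGTG was found in 18 of the 117 (15.4%), in 10.1% of all tested genes with a window and in 6.86% of all genes with a window. Of the 25 members with a window that were lower in L-GMP than in GMP, 7 held it (28%): Slc16a1, Slc20a1, Slc25a13, Slc25a15, Slc25a33, Slc33a1 and Slc39a8. Of the 18 that were higher, 2 held it (11.1%), and among all genes lower in L-GMP the share was 11.8%. Shares were similar in comparisons of normal sorts. For MEP against GMP, 6 of 21 lower members (28.6%) and 3 of 10 higher members (30%) held it. For HSC against GMP, 5 of 24 lower members (20.8%) and 3 of 21 higher members (14.3%) did. AGATAA was in 11 of the 117 (9.4%, against 7.41% of tested genes and 11.4% of all genes). TGATGNAAN was in 2 (1.71%, against 2.48% and 3.89%) and GAGGAAGT also in 2 (1.71%, against 2.58% and 2.79%). A match is a description of the letters only.

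Carriers of iron did not move together: Slc40a1 and Slc25a37 were higher in L-GMP than in GMP, Slc25a28 was lower and Slc11a2 was not called. Slc40a1, or ferroportin, the iron exporter of the cell surface, read 328, 334, 296 and 669 in GMP and 469 to 1396 in L-GMP, with a median of 757. The fourth GMP array fell among the L-GMP arrays, and the difference was 1.03 (SE 0.32, adjusted p = 0.0147). Slc25a37, the mitochondrial iron importer mitoferrin, read 114, 142, 173 and 147 in GMP and 230.1 to 391 in L-GMP (median 277), with no overlap and a difference of 1.0 (SE 0.23, adjusted p = 0.00171). Slc25a28, the second mitoferrin, overlapped between the groups and was lower (-0.33, SE 0.11, adjusted p = 0.0294), a call lost without GMP array 2, 3 or 4 or L-GMP array 2, 3 or 5 (adjusted p up to 0.113). The call of Slc40a1 was lost without the third GMP array (adjusted p = 0.0577) and without the first HSC, CMP and GMP arrays, which were low in immediate early genes (adjusted p = 0.051).

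Slc11a1, the phagosomal metal transporter of macrophages and granulocytes, read 92.8, 80.0, 55.7 and 55.3 in GMP and 122 to 154 in L-GMP (median 129.6). All 6 L-GMP arrays were above all 16 normal arrays, and the difference to GMP was 0.96 (SE 0.18, adjusted p = 0.000368). The summed level of 10 monocyte and macrophage markers was 7413 to 8575 in L-GMP and 5994 to 6668 in GMP, with Fcgr1 at the floor in both, and its part in the level of Slc11a1 was not tested. In bulk samples, fewer cells of a type and less RNA per cell cannot be told apart.

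Of 13 tested genes of iron and haem handling that are not carriers of this family (Abcb10 belongs to the ABC family), 1 was higher, 5 were lower and 7 were not called in L-GMP against GMP, where 15.2% of all genes were higher and 18.3% lower. Tfr2, a transferrin-binding receptor that senses iron, was at the floor on 4 of 6 L-GMP arrays and lower by a log2 difference of -2.27, which the floor can understate (SE 0.15, adjusted p = 1.37e-10), and Hfe, its partner in iron sensing, at -0.95 (SE 0.10, adjusted p = 2.55e-07). The divalent metal importer Slc11a2 was not called (0.22, SE 0.29, adjusted p = 0.619), nor was Slc25a38, which brings glycine into mitochondria for haem (0.09, SE 0.12, adjusted p = 0.631).

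The copper importer was lower, and zinc importers were called in both directions. Slc31a1, the high-affinity copper importer, read 191, 219, 232 and 248 in GMP and 86.4 to 138 in L-GMP (median 114), a difference of -0.97 (SE 0.14, adjusted p = 2.1e-05). Slc39a8, which imports zinc and manganese, read 298, 312, 252 and 238 in GMP and 146 to 165 in L-GMP (median 153), a difference of -0.83 (SE 0.13, adjusted p = 2.51e-05). Neither overlapped between the groups. The zinc importer Slc39a3 was higher instead, at 242 to 419 in L-GMP (median 254) against 218, 172, 175 and 162 in GMP (0.68, SE 0.14, adjusted p = 0.00085), and so was the zinc transporter Slc39a11 (0.38, SE 0.12, adjusted p = 0.0169), whose arrays overlapped and whose call was lost without GMP array 2 or 3 (adjusted p up to 0.0801). The zinc-responsive genes Mt1, Mt2 and Mtf1 gave no call in this comparison.

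Slc25a25, a mitochondrial carrier that exchanges ATP-magnesium for phosphate and is regulated by calcium, stood out among the organelle carriers. It read 116, 50.7, 130.2 and 114 in GMP and 226 to 305 in L-GMP (median 263). It was at the floor on all 5 HSC arrays and did not exceed 76.8 on any CMP or MEP array, so that all L-GMP arrays lay above all normal arrays. The difference to GMP was 1.46 (SE 0.21, adjusted p = 1.86e-05), and L-GMP was at least 6.87-fold higher than HSC (adjusted p = 1.87e-10). Slc25a15, the ornithine carrier of the urea cycle, was lower at 75.8 to 127 in L-GMP (median 106) against 142, 205, 207 and 179.8 in GMP (-0.81, SE 0.20, adjusted p = 0.00286).

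Of the other mitochondrial carriers lower in L-GMP, Slc25a33, which brings pyrimidine nucleotides into the organelle, read 157, 196, 170.3 and 136 in GMP and 75.5 to 112 in L-GMP (median 97.5), with no overlap (-0.79, SE 0.20, adjusted p = 0.00372). Slc25a11, the exchanger of oxoglutarate and malate, was higher, at 98.9 to 151 in L-GMP (median 116) against 83.4, 71.0, 87.1 and 76.1 in GMP (0.60, SE 0.15, adjusted p = 0.0039). It passed the filter through L-GMP arrays alone, so an excess there was built in. Against HSC, 11 of the 26 mitochondrial carriers were lower in L-GMP and 5 were higher, where 23.8% of all genes were lower and 23.4% higher.

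Further carriers of the plasma membrane and the Golgi were higher in L-GMP. Slc4a8, a sodium-driven chloride and bicarbonate exchanger, read 236, 239, 229.6 and 239.6 in GMP and 321 to 421 in L-GMP (median 362), and lay above all normal arrays (0.60, SE 0.13, adjusted p = 0.00108). Slc35a5, a nucleotide sugar carrier, read 313, 286, 220.2 and 261 in GMP and 329 to 511 in L-GMP (median 451), with no overlap (0.73, SE 0.19, adjusted p = 0.00533). Slc22a8, an organic anion transporter, read 72.5, 68.7, 40.8 and 44.7 in GMP and 85.2 to 112 in L-GMP (median 96.4) (0.85, SE 0.27, adjusted p = 0.0174), but HSC arrays of 59.2 to 130.0 spanned the L-GMP range, and the call was lost without the third or the fourth GMP array (adjusted p = 0.0761 and 0.0604). Slc20a1, a phosphate importer, was lower, at 178 to 323 in L-GMP (median 193) against 295, 400.2, 302 and 317 in GMP, where the highest L-GMP array overlapped GMP (-0.65, SE 0.19, adjusted p = 0.0113, and adjusted p = 0.0518 without the second GMP array).

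Slc1a3, a glutamate transporter of glia, was at the floor on all 16 normal arrays and read 78.9 to 143 in L-GMP (median 103), at least 2.76-fold above GMP (adjusted p = 8.29e-09). It passed the filter through 3 L-GMP arrays alone. Of its other probe sets, 1 was at the floor on all 22 arrays, and 1 read 62.6 to 103 in L-GMP and 62.3 to 89.9 in GMP, so the difference was seen by 1 of 3 probe sets. Taken without the filter, the probe set with the highest mean gave 0.05 for L-GMP against GMP (adjusted p = 0.903) and -0.11 for L-GMP against the mean of the normal sorts (adjusted p = 0.578).

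Set against the mean of the 4 normal sorts, 36 members were higher in L-GMP and 41 were lower, which is 23.7% and 27% of members against 23.5% and 25.9% of all genes. In 9 members all L-GMP arrays were above all 16 normal arrays (5.92%, against 5.69% of genes), and in 3 all were below (1.97%, against 4.94%). The 9 were Slc11a1, Slc12a5, Slc1a3, Slc25a11, Slc25a25, Slc25a37, Slc35d1, Slc39a3 and Slc4a8, and the 3 were Slc12a2, Slc22a5 and Slc3a2. Of the 9, at least Slc12a5, Slc1a3 and Slc25a11 passed the filter through L-GMP arrays alone, so for them an excess was built in. Slc22a5, which imports carnitine for fatty acid oxidation, read 98.9 to 134 in L-GMP (median 116) against 164 to 285 across the normal arrays, and its difference to the normal mean was -0.86 (SE 0.10, adjusted p = 2.57e-07). Slc35d1, which brings nucleotide sugars into the endoplasmic reticulum, read 189 to 368 in L-GMP (median 272) and 93.5 to 177 on the normal arrays (0.95, SE 0.12, adjusted p = 5.52e-07).

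**Figure D3:**
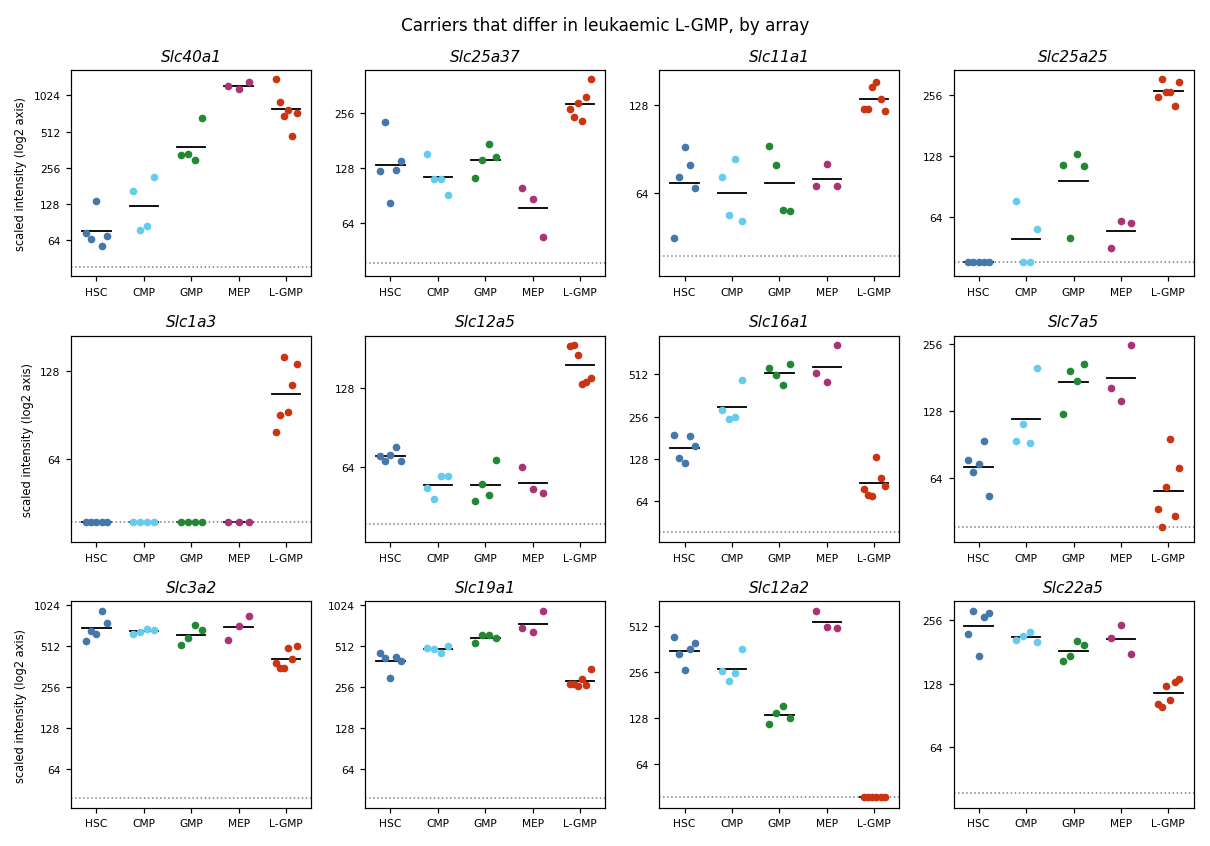
Scaled intensity on a log2 axis for 12 solute carriers on each of the 22 sorted arrays, with a bar at the mean log2 level of each group and a dotted line at the floor of 38.7. L-GMP is above all normal arrays for Slc25a37, Slc11a1, Slc25a25, Slc1a3 and Slc12a5, at the floor for Slc12a2, and for Slc40a1 its mean lies between those of GMP and MEP.

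The carriers that separate stem cells from GMP were tested in the normal sorts. Between HSC and GMP, 25 members were higher in HSC and 29 were lower, 16.4% and 19.1% of members against 19.4% and 21.8% of all genes. Immediate early genes were also higher in HSC (9 of 20 tested), and their part in these differences was not tested. The largest difference of a member was that of a glucose carrier. Slc2a3, the high-affinity neuronal and leukocyte glucose transporter, read 529, 564, 490.5, 692 and 692 in HSC and 80.1, 60.9, 121 and 71.8 in GMP. The groups stood far apart, at 2.87 (SE 0.19, 7.29-fold, adjusted p = 1.52e-10), and the CMP arrays (251, 238, 277 and 258) and MEP arrays (313, 297 and 276) fell between them. L-GMP ranged from 40.9 to 82.0 (median 55.9), and was lower than HSC by a log2 difference of -3.44 (SE 0.17, 10.8-fold, adjusted p = 4.05e-13). Between L-GMP and GMP the arrays of Slc2a3 overlapped; the difference of -0.57 (SE 0.18, adjusted p = 0.0194) was not called without the third GMP array (adjusted p = 0.119).

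Slc2a1, the basal glucose transporter, read 641, 556, 439, 870.2 and 614 in HSC, 360, 484, 417 and 331 in GMP and 177, 159 and 67.5 in MEP. Only MEP stood apart, below every other sort. Its difference to GMP was -1.67 (SE 0.26, adjusted p = 3.24e-05) and to HSC -2.30 (SE 0.25, adjusted p = 2.6e-07). HSC was called higher than GMP (0.63, adjusted p = 0.0316), a call lost on leaving out any of 5 single arrays (HSC 1, 4 or 5, GMP 1 or 4). L-GMP did not differ from GMP by the test (-0.25, SE 0.22, adjusted p = 0.413). A further probe set of Slc2a1 showed no difference between MEP and GMP (-0.03, adjusted p = 0.938), while another was lower (-1.28, adjusted p = 0.000719).

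Other members high in HSC carried peptides, magnesium and chloride. Slc15a2, which takes up small peptides with protons, read 331, 265, 192, 209 and 212 in HSC and 83.4, 92.3, 67.6 and 68.1 in GMP, a difference of 1.62 (SE 0.26, adjusted p = 3.58e-05). In L-GMP it was at the floor on 4 of 6 arrays. Slc25a53, a mitochondrial carrier without an established substrate, read 226, 198, 175, 201 and 237 in HSC and at most 94.6 on any array of another sort, and exceeded GMP by 1.92 (SE 0.12, adjusted p = 7.53e-11). Slc25a53 passed the filter through the HSC arrays alone, so it had to differ. Slc41a1, a magnesium carrier, was higher in HSC by 1.07 (SE 0.18, adjusted p = 8.72e-05). Slc16a11, a monocarboxylate carrier of the Slc16a1 family, was higher by 1.31 (SE 0.26, adjusted p = 0.000401), with arrays of 529, 756, 839, 836 and 811 in HSC against 559, 275, 226 and 233 in GMP, so the lowest HSC array lay below the highest GMP array.

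Among members low in HSC, Slc40a1 read 74.0, 66, 136, 57.8 and 69.7, below every GMP array (-2.32, SE 0.33, adjusted p = 8.08e-06). Slc35b1, which exchanges ATP and ADP at the endoplasmic reticulum, read 381, 306, 308, 327 and 268 in HSC and 754, 785, 880.2 and 951 in GMP (-1.41, SE 0.11, adjusted p = 3.62e-09). Slc33a1, the acetyl-CoA carrier of the same organelle, was also lower (-1.32, SE 0.22, adjusted p = 5.81e-05). Both were low in MEP too, at -1.34 (SE 0.13, adjusted p = 5.49e-08) and -1.47 (SE 0.25, adjusted p = 9.5e-05) against GMP. Of 16 carriers of nucleosides and nucleotide sugars, most of them in the Golgi and endoplasmic reticulum, 2 were higher and 5 lower in HSC than in GMP. Among all genes, 19.4% were higher and 21.8% lower in HSC.

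Against HSC, L-GMP had 35 higher members and 33 lower members, 23% and 21.7% against 23.4% and 23.8% of all genes. Slc40a1 had the largest rise at 3.35 (SE 0.30, 10.2-fold, adjusted p = 4.62e-09), and Slc25a37 (1.10, SE 0.21, adjusted p = 0.000201) and the monocarboxylate carrier Slc16a6 (1.39, SE 0.11, adjusted p = 1.68e-09) were higher too. Bsg, the chaperone that takes Slc16a1 to the surface, was higher in L-GMP than in HSC (0.84, SE 0.20, adjusted p = 0.00156), while Slc16a1 itself was lower. Of 20 immediate early genes tested, 18 were lower in L-GMP than in HSC, and their part in these differences was not tested. Without the first arrays of HSC, CMP and GMP, 62 members were called in place of 68.

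MEP, the sort that leads to red cells and platelets, had 15 higher members and 25 lower members than GMP, 9.87% and 16.4% against 11.9% and 15.6% of all genes. Slc38a5, a glutamine and serine carrier, read 254, 189.9 and 378 in MEP and was at the floor on every HSC, GMP and L-GMP array and on 3 of 4 CMP arrays. MEP was at least 6.81-fold higher than GMP (adjusted p = 6.29e-12) and than HSC (adjusted p = 4.1e-12). Slc45a3, a sugar carrier, read 187, 224 and 192 in MEP, 78.5, 79.1, 46.4 and 91.0 in CMP, and was at the floor on all HSC arrays, which MEP exceeded at least 5.17-fold (adjusted p = 3.32e-11). Both passed the filter through the 3 MEP arrays alone, so they had to differ, and with any MEP array left out they were not tested. Slc14a1, the urea transporter of red cells, read 122, 142 and 108 in MEP and 38.7, 38.7, 45.4 and 38.7 in GMP, a difference of 1.61 (SE 0.25, adjusted p = 3.78e-05).

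The iron exporter Slc40a1 was high in MEP at 1221, 1150 and 1319, above all arrays of HSC, CMP and GMP, and exceeded GMP by 1.68 (SE 0.37, adjusted p = 0.00158) and HSC by 4.0 (SE 0.36, adjusted p = 1.67e-08). Slc25a38 was higher than in GMP by 0.71 (SE 0.14, adjusted p = 0.000453). Slc25a37, in contrast, was lower in MEP, at 100.3, 86.7 and 53.8 (-0.88, SE 0.27, adjusted p = 0.018), a call lost without the third MEP or the third GMP array, and Slc4a1, the anion exchanger that anchors the red cell skeleton, was not called (-0.22, SE 0.22, adjusted p = 0.512). Of membrane proteins outside the family, the ammonium channel Rhag, listed at the floor throughout GMP, was higher in MEP by at least 12.8-fold (adjusted p = 4.23e-12). Rhag was also at the floor on all HSC and L-GMP arrays and on 3 of 4 CMP arrays. It passed the filter through the MEP arrays alone, so it had to differ. The water channel Aqp1 was at the floor on 3 of 4 GMP arrays and higher in MEP by 5.61, which the floor can understate (SE 0.22, adjusted p = 6.48e-14). Slc12a2 was higher in MEP than in GMP by 2.02 (SE 0.16, adjusted p = 2.25e-09).

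Between CMP and GMP, 10 members were higher in CMP and 14 were lower, 6.58% and 9.21% against 8.6% and 8.18% of all genes. Members higher in CMP included Slc2a3 (1.66, SE 0.20, adjusted p = 3.1e-06), Slc15a2 (1.33, SE 0.27, adjusted p = 0.00141), Slc14a1 (1.11, SE 0.23, adjusted p = 0.00183) and Slc12a2 (1.01, SE 0.15, adjusted p = 3.83e-05). The 6 megakaryocyte markers were also higher in CMP than in GMP, with summed levels of 3583 to 8959 against 946 to 1660. Sums of 8 erythroid markers overlapped, at 2313.6 to 4840.2 in CMP and 1247.1 to 2673.5 in GMP. The part of these markers in the differences between CMP and GMP was not tested. Of the 22 metal carriers, 5 were lower in CMP and none was higher by limma; Slc40a1 (-1.64, SE 0.35, adjusted p = 0.0018) and Slc39a8 (-0.54, SE 0.14, adjusted p = 0.00782) were among them, the latter not called without the first HSC, CMP and GMP arrays (adjusted p = 0.0845). 

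The ends of the normal series, MEP and HSC, differed in 23 higher and 24 lower members, 15.1% and 15.8% against 15.5% and 17.4% of all genes. Slc16a1 was higher in MEP by 1.91 (SE 0.24, adjusted p = 2.23e-06) and Slc7a5 by 1.33 (SE 0.29, adjusted p = 0.00125), and neither overlapped HSC. Slc25a45, a mitochondrial carrier, read 875, 934, 890.3, 936 and 1106 in HSC and 431, 368 and 286 in MEP (-1.41, SE 0.12, adjusted p = 5.08e-09). In L-GMP Slc25a45 ran from 733 to 821, between those sorts.

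Carriers lower in MEP than in GMP came from several classes. Slc25a13, the aspartate and glutamate exchanger of the malate shuttle, read 150.02, 159 and 123 in MEP and 349, 376, 388 and 349.8 in GMP (-1.35, SE 0.22, adjusted p = 4.89e-05). Slc43a3, which carries purine nucleobases but is counted here in the amino acid class, read 125, 85.2 and 94.8 in MEP and 195, 195, 262 and 223 in GMP (-1.12, SE 0.18, adjusted p = 5.74e-05). Slc39a6, a zinc importer, read 140.1, 134 and 58.9 in MEP and 219, 265, 263 and 186 in GMP (-1.16, SE 0.24, adjusted p = 0.000953). In all 3 the groups did not overlap. Of the 16 nucleoside and nucleotide sugar carriers, 5 were lower in MEP and none was higher by limma. Among all genes, 15.6% were lower and 11.9% higher in MEP.

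**Figure D4:**
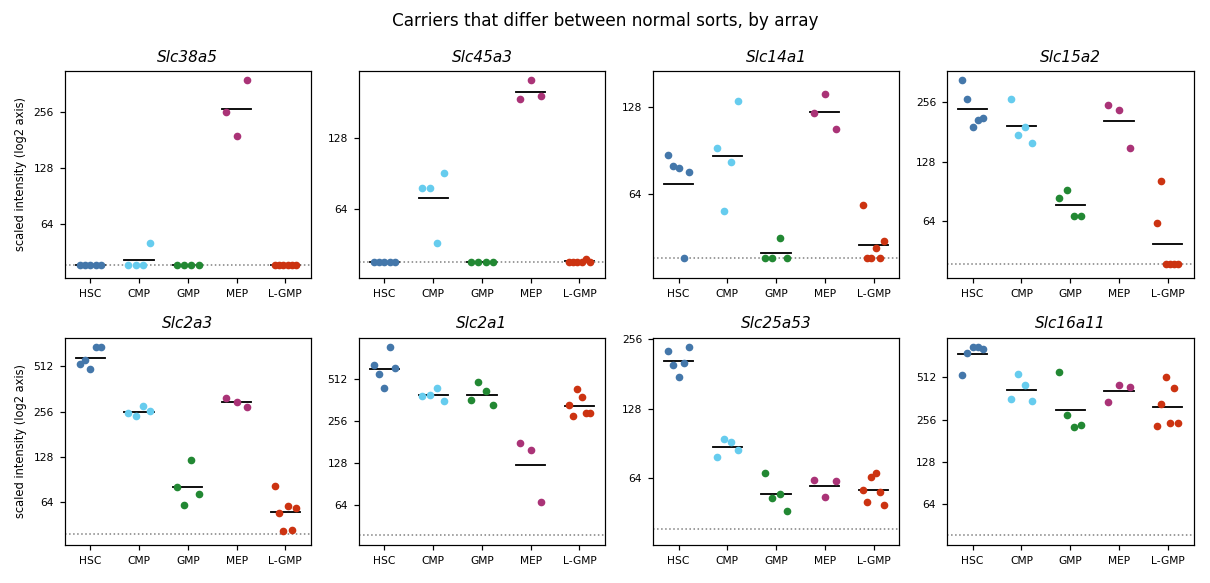
Scaled intensity on a log2 axis for 8 solute carriers that differ between normal sorts, on each of the 22 sorted arrays, with a bar at the mean log2 level of each group and a dotted line at the floor of 38.7. Slc38a5 and Slc45a3 are raised in MEP, Slc2a3, Slc25a53 and Slc16a11 are highest in HSC, and Slc2a1 is lowest in MEP.

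In the transduced experiment, GMP expressing MLL-AF9 were set against GMP expressing GFP to ask what the fusion changes in the normal progenitor. No member passed the test: limma called 0 of 124, against 0.0276% of all genes, and 10 members (8.06%) had an unadjusted p under 0.05 against 10.2% of genes. In 8 members the MLL-AF9 arrays lay above all GFP arrays, and in 9 below, 6.45% and 7.26% against 8.47% and 9.01% of genes. Arrays of the same replicate number deviated together in all 3 pairs, although the arrays GFP 3 and MLL-AF9 2, of different numbers, correlated at 0.4745, above matched pairs 2 (0.379) and 3 (0.41). With the pair as a block 1 member was called, Slc11a1. That is 0.806% of members, against 1.53% of genes called lower in the blocked fit.

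Slc11a1 read 733, 544 and 439.9 with GFP and 196, 138 and 138 with MLL-AF9. Each GFP array was above each MLL-AF9 array, and the difference was -1.85 (SE 0.23, 3.62-fold, adjusted p = 0.135, and adjusted p = 0.00333 with the block). The gene passed the filter through the 3 GFP arrays alone, so that it could not be tested with any GFP array left out. With the filter lifted, the blocked adjusted p was 0.0215, and 0.0302, 0.0862 and 0.00897 without the pair 1, 2 or 3 in that order. Markers of monocytes and macrophages moved with it: their summed level over 10 of 10 genes was 20856 to 35844 with GFP and 10107 to 18125 with MLL-AF9, none at the floor, and their part in the difference was not tested.

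Other metal carriers had values apart without a call. Slc40a1 read 1590, 2168 and 2211 with GFP and 1137, 1275 and 1315 with MLL-AF9 (-0.67, SE 0.16, adjusted p = 0.382, blocked 0.0542). Slc31a1 read 1565, 1187 and 1139 against 1080.5, 814 and 891 (-0.48, SE 0.17, adjusted p = 0.472). Slc39a8 read 405, 500.4 and 591 against 742, 918 and 702 (0.67, SE 0.18, adjusted p = 0.382). With the block it was called when pair 3 was left out, and not when pair 1 or pair 2 was. In each of these genes the groups did not overlap. Carriers called lower in L-GMP went in both directions here, and only some are described. Slc31a1 lay lower, as did Slc15a2 (-0.34, SE 0.15, adjusted p = 0.496). Slc39a8 lay above its controls, and so did Slc16a1, Slc19a1 and Slc7a5. Slc16a1 read 1101, 1660 and 1637 against 1878, 2571 and 1817 (0.52, SE 0.21, adjusted p = 0.483). Slc19a1 read 1099, 1800 and 1749 against 2875, 2305 and 2240 (0.70, SE 0.22, adjusted p = 0.436). Slc7a5 read 289.9, 638 and 665 against 799, 827 and 801 (0.70, SE 0.31, adjusted p = 0.504). The first GFP array was the lowest in Slc16a1, Slc19a1 and Slc7a5. Slc2a1 split by replicate number, at 5114, 1688 and 1796 with GFP and 4284, 1737 and 1421 with MLL-AF9, and the first array of each group was the highest.

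**Figure D5:**
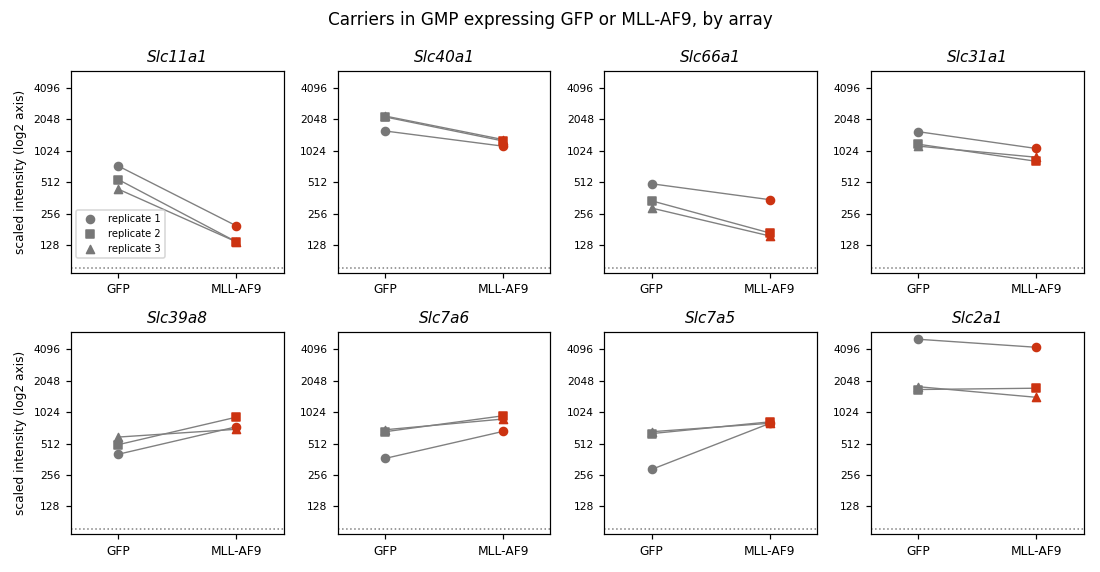
Scaled intensity on a log2 axis for 8 solute carriers on the 3 GFP and 3 MLL-AF9 arrays, with a line joining arrays of the same replicate number and a dotted line at the floor of 78.0; Slc66a1 and Slc7a6 were chosen after their values were seen. Slc11a1, Slc40a1 and Slc31a1 lie lower with MLL-AF9 and Slc39a8 and Slc7a5 higher on all 3 arrays, while none was called without the replicate block.

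The differences of both experiments, which share no array, can be laid beside each other for the members tested in both. For Slc11a1 the log2 difference was -1.85 for MLL-AF9 against GFP and 0.96 for L-GMP against GMP. For Slc40a1 it was -0.67 and 1.03, for Slc16a1 0.52 and -2.60, for Slc7a5 0.70 and -1.62, for Slc19a1 0.70 and -1.06, for Slc39a8 0.67 and -0.83, and for Slc31a1 -0.48 and -0.97. Of these 7 genes, selected with values known, only Slc31a1 had the same sign in both. Among members outside the 7, Slc15a2 lay lower in both, and Slc25a37 and Slc25a25 lay higher in both. Across the 119 members the correlation was r = -0.437 (Spearman's rho -0.311), and 47 (39.5%) had the same sign, against r = -0.296 and 38.2% for all 6865 genes. Genes of 1 array share its amplification and its controls, so this describes these arrays, and no p-value is given.

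The filter decides which members are described. In the sorted experiment Slc13a3, Slc22a6, Slc25a35, Slc25a44, Slc35a3 and Slc3a1 exceeded the median on 2 arrays and were left out, while Slc12a3, Slc16a8, Slc1a3, Slc22a8, Slc24a3, Slc38a5, Slc45a3, Slc66a1 and Slc6a2 exceeded it on 3 and were kept. The cystine importer Slc7a11, the amino acid carrier Slc7a8 and the lactate exporter Slc16a3 exceeded it on 0 of the 22 arrays. Where 2 or more probe sets of a member were kept (39 members), their calls were opposite in none of 39 for L-GMP against GMP, but for Slc19a1 between L-GMP and HSC and for Slc35a2 between HSC and GMP.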

How the data were processed

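Members and gene lists were chosen with earlier results of these data known. The authors deposited a linear intensity for each probe set; the submitters' processing notes name MAS5, with no version or scaling given in the sources used here, and some intensities are 0 or lower. The 64 control probe sets were left out of 22690. Within each experiment, arrays were scaled to the common mean after trimming 2% at each end, values under the 25th percentile were set to that floor, and log2 was taken, which removes changes in total RNA. Probe sets naming 1 gene (20380) and above the experiment's median on at least 3 arrays were kept, the highest mean per gene. Groups came from sample titles. limma 3.58.1 (R 4.3.3; lmFit, eBayes, two-sided) fitted the 6 transduced arrays alone and all 22 sorted arrays together, with Benjamini-Hochberg adjustment over all genes tested. Errors on differences are standard errors, and the number of arrays limits precision. The fit was tested on simulated data.

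Replicate numbers, from the sample titles, were taken to pair the arrays of an experiment only if residuals of every same-numbered pair correlated above 0.1. This held for 3 of 3 transduced pairs (r from 0.379 to 0.596), but for only 18 of 37 sorted pairs (-0.493 to 0.528), which were not taken as paired. Named genes were, per comparison, up to 8 called members with the largest rise and 8 with the largest fall, 21 listed carriers whatever their values (Slc18a2, Slc22a3 and Slc43a1 among them are not analysed here), and up to 3 called genes per partner list; members named for non-overlapping arrays, at the filter's edge or in the motif count, and Slc7a6, Slc20a1, Slc25a11, Slc25a28, Slc25a33, Slc39a3, Slc39a11, Slc4a8 and Slc66a1, and Slc15a2, Slc19a1, Slc31a1 and Slc39a8 for MLL-AF9 against GFP, were chosen after their values were seen.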

Additional observations from a re-analysis of the deposited data

Results flagged for a closer look

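Among the 58 named carriers, 214 groups of 4 to 6 arrays were examined for a single array far from the rest of its group, and 17 had such an array, where chance flags about 1 in 20. Groups with most arrays at the floor were not examined.

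In HSC, the stray arrays were Slc14a1 on array 4 at 38.7 (others 76.2 to 87.5), Slc16a11 on array 1 at 529, Slc20a1, a phosphate importer, on array 4 at 533, Slc25a45 on array 5 at 1106, Slc35d1 on array 3 at 93.5 and Slc40a1 on array 3 at 136. In CMP they were Slc35b4 on array 2 at 94.0, Slc39a6 on array 4 at 192 and Slc46a3 on array 3 at 92.6.

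In GMP, Slc11a2 stood high on array 1 at 260.0 (others 154 to 158), Slc25a25 low on array 2 at 50.7 and Slc40a1 high on array 4 at 669. In L-GMP, Slc20a1 was high on array 6 at 323, Slc35a5 low on array 6 at 329, Slc46a3 on array 6 at 40.7, Slc41a3 on array 3 at 111 and Slc50a1, a sugar carrier, on array 4 at 388. Array 6 of L-GMP held 3 of the 17.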

How the results depend on the processing

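Other scalings, floors, filters, probe set rules, a 3′/5′ covariate, fits of only the groups compared and arrays left out gave 6831 values for 213 gene results: 6693 kept direction and call, 123 lost the call, 14 gained it and 1 reversed, Slc1a3 for L-GMP against the normal mean without the filter (-0.11, adjusted p = 0.578). The number of called members stayed within 1.5 times in each comparison and setting, except MLL-AF9 against GFP with the replicate block (1 in place of 0). With pair 3 also left out, the blocked fit called 4 of 119 members (Slc31a2, Slc39a8, Slc22a5 and Slc29a3), among 233 genes called. Without pair 1 or pair 2 it called 0 members. The blocked fits with a pair left out or with no filter were chosen after seeing the data. Sorted replicate numbers were not taken as pairs, since only 18 of 37 passed, and the block gave 55 called members for L-GMP against GMP in place of 54. With each array left out in turn, counts ran from 37 to 57 for L-GMP against GMP, 62 to 70 against HSC, 69 to 81 against the normal mean, 44 to 60 for HSC, 34 to 41 for MEP and 16 to 24 for CMP against GMP, 33 to 49 for MEP against HSC, and 0 to 0 for MLL-AF9 against GFP. A floor at the 50th percentile lost 19 gene calls, among them Slc12a2, L-GMP against GMP (-0.31, adjusted p = 0.079), since low values are then equal. The cause of other lost calls was not tested. Signal near background limits what Slc1a3, Slc24a3, Slc45a3, Slc38a5 and Slc14a1 can show.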

Other observations

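Other membrane transporters followed their own patterns. Of 19 ABC transporters tested, which use ATP directly, 1 was higher and 9 were lower in L-GMP than in GMP, where 15.2% of all genes were higher and 18.3% lower. Abcg2, the exporter that marks the side population of stem cells, was at the floor on 5 of 6 L-GMP arrays (-1.77, which the floor can understate, SE 0.14, limma adjusted p = 4.17e-09), and Abcb1b, a multidrug exporter, was lower by a log2 difference of -1.45 (SE 0.25, adjusted p = 0.000134). Of 15 ion pumps and channels, 5 were higher and 1 was lower, beside the same shares of all genes: the copper pump Atp7b (1.62, SE 0.15, adjusted p = 3.55e-08) and the calcium pump Atp2a3 (1.14, SE 0.20, adjusted p = 0.000169) were higher, and the potassium channel Kcnn4 was lower (-2.24, SE 0.16, adjusted p = 8.03e-10).

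The glycerol and water channel Aqp9, listed at the floor throughout GMP, was higher in MEP by at least 16.7-fold (limma adjusted p = 1.04e-12). Between MEP and GMP, the phospholipid exporter Abcb4 was higher in MEP (4.56, SE 0.18, adjusted p = 1.1e-13), while the proton channel Hvcn1 was lower (-2.71, SE 0.18, adjusted p = 1.94e-10). The metal-binding gene Mt2 was higher in MEP than in GMP (4.05, SE 0.32, adjusted p = 1.98e-09). Mt1 was lower in HSC than in GMP (-4.51, SE 0.21, adjusted p = 4.83e-13).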
